A study of Mus musculus with 24 samples.

Results

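The extended family of miR-15/16 with miR-103 and miR-107 was followed through 8 mouse tissues and 3 lens groups. Its members, chosen by name from the probe annotation of the arrays, were mmu-miR-15a-5p, mmu-miR-15b-5p, mmu-miR-16-5p, mmu-miR-195a-5p, mmu-miR-497a-5p, mmu-miR-322-5p, mmu-miR-103-3p and mmu-miR-107-3p, which are 8 of the 1881 miRNAs on the array. Their signals were not used in choosing them. The study fixed lenses on the eyes of C57BL/6J mice to induce myopia and asked which miRNAs change in each part of the eye. Single-color arrays were made from the cornea, iris, crystalline lens, retina, RPE/choroid (labelled choroid) and sclera, and from samples labelled SCN and LGN. For each of these 8 tissues there was 1 array from normal animals without a lens, 1 labelled 0D lens and 1 labelled lens-induced, which gives 24 arrays. Per the study's methods, the lens-induced eyes were right eyes of male mice that wore a -30 D lens for 3 weeks from an age of 3 weeks, and the ocular RNA of the normal and the -30 D eyes was pooled from 3 mice per array. The 0 D lens, the SCN and the LGN are not described there, so that the age and wear time for the 0 D lens, and the pooling of the 0 D, SCN and LGN samples, are not given in the sources used here. The lens-induced SCN and LGN samples are taken to share the age and wear time of the lens-induced eyes from their label alone. C57BL/6J is the only strain that the study's methods name.

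miRNAs are short RNAs that guide Argonaute proteins to messenger RNAs, mainly through a seed near their 5′ end, and lower the output of those messengers. The miR-15/16 family is best known for restraining the cell cycle, with cyclins and BCL2 among its studied targets. miR-103 and miR-107 lie in introns of pantothenate kinase genes, which serve coenzyme A synthesis, and are known as abundant miRNAs of the brain with targets in metabolism and in miRNA processing itself.

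The mature sequences are shown because the family is defined by them. They are from RefSeq (GRCm38.p6), 5′ to 3′, with the seed (bases 2 to 8) in capitals.
mmu-miR-15a-5p: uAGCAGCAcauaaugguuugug
mmu-miR-15b-5p: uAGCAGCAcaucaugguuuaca
mmu-miR-16-5p: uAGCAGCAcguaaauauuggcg
mmu-miR-195a-5p: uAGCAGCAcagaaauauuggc
mmu-miR-497a-5p: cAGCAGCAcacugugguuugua
mmu-miR-322-5p: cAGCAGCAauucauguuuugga
mmu-miR-103-3p: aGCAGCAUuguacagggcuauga
mmu-miR-107-3p: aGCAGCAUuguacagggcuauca
The 6 members of the miR-15/16 group carry the run AGCAGCA at bases 2 to 8. In miR-103 and miR-107 the same run stands at bases 1 to 7, so that their seed is shifted by 1 base and reads GCAGCAU. Outside the seed the members differ: miR-16 and miR-195a were identical at 19 of 21 bases, miR-15a and miR-15b at 18 of 22, and miR-195a and miR-497a at 12 of 21. miR-103 and miR-107 were identical at 22 of 23 bases, with the substitution G22C (miR-103 first, counted from the 5′ end). Each member was read by 2 probes of 15 spots each. Hybridization of one member to the probe of another was not tested, and a difference of 1 base makes this a limit above all for miR-103 and miR-107.

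The members come from different genomic loci (GRCm38.p6). miR-15a lies at chr14:61632075-61632096 on the minus strand, near one of the copies of miR-16 (Mir16-1), both within the non-coding gene Dleu2. miR-15b lies at chr3:69009775-69009796 on the plus strand within Smc4, with the other copy of miR-16 (Mir16-2) 66 bases from its hairpin. miR-497a (chr11:70234730-70234751) and miR-195a (chr11:70235062-70235082) lie on the plus strand with 241 bases between their hairpins, and the annotation used here lists no gene around them. miR-322 lies at chrX:53054306-53054327 on the minus strand within C430049B03Rik, 200 bases from the hairpin of miR-503. miR-103 has copies within Pank2 (chr2:131288103-131288125) and Pank3 (chr11:35782447-35782469), and miR-107 lies within Pank1 (chr19:34820700-34820722, minus strand).

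The arrays detected 129 to 249 miRNAs each, fewest in the crystalline lens and the cornea. For detection, at least 1 probe of a miRNA had to exceed 3 times its error. The scaling gave every array the same 75th percentile, taken over 79 miRNAs that all 24 arrays detected. The log2 factors ran from -1.01 to 1.65 and were highest in the crystalline lens (1.27 to 1.65) and the cornea (0.69 to 0.98). Each lens group lay on 1 slide and each tissue had its own position on every slide, so that lens group and slide, and likewise tissue and position, cannot be told apart. Retina, cornea and the nervous samples carried their markers. The 5 nervous tissue miRNAs were all detected in retina, SCN and LGN, the photoreceptor and sensory list summed to 14500 to 16170 in retina, and the surface epithelium list to 957 to 1179 in cornea. That sensory list also summed to 814 to 1436 in RPE/choroid and to 441 to 1094 in sclera, and the 4 miRNAs of the striated muscle list were all detected in the crystalline lens, with a sum of 686 to 757. In SCN and LGN miR-182-5p and miR-96-5p were undetected. In whole tissues, fewer cells of a type and less RNA per cell cannot be told apart.

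Of 192 signals of the members, 183 were detected. miR-15a, miR-15b, miR-103 and miR-107 were detected on all 24 arrays, miR-16, miR-195a and miR-497a on 22 and miR-322 on 21. Every missing value was in the crystalline lens. In each sentence below the signals are scaled signals in the order normal, 0 D lens, -30 D lens, and levels are compared between tissues for the same miRNA only, since signals of different probes have no common scale. limma's test over the tissues (adjusted p below 0.05, Benjamini-Hochberg over 197 miRNAs detected on at least 12 arrays) called 8 of 8 members, and it called 100% of all miRNAs tested, so that this call does not distinguish the members. Over the 28 pairs of tissues, 182 of 224 tests of members were called, beside 75.2% of the tests of all miRNAs (32 to 90.9% from pair to pair). The 3 arrays of a tissue served as its replicates, and each came from another lens group.

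**Figure D1:**
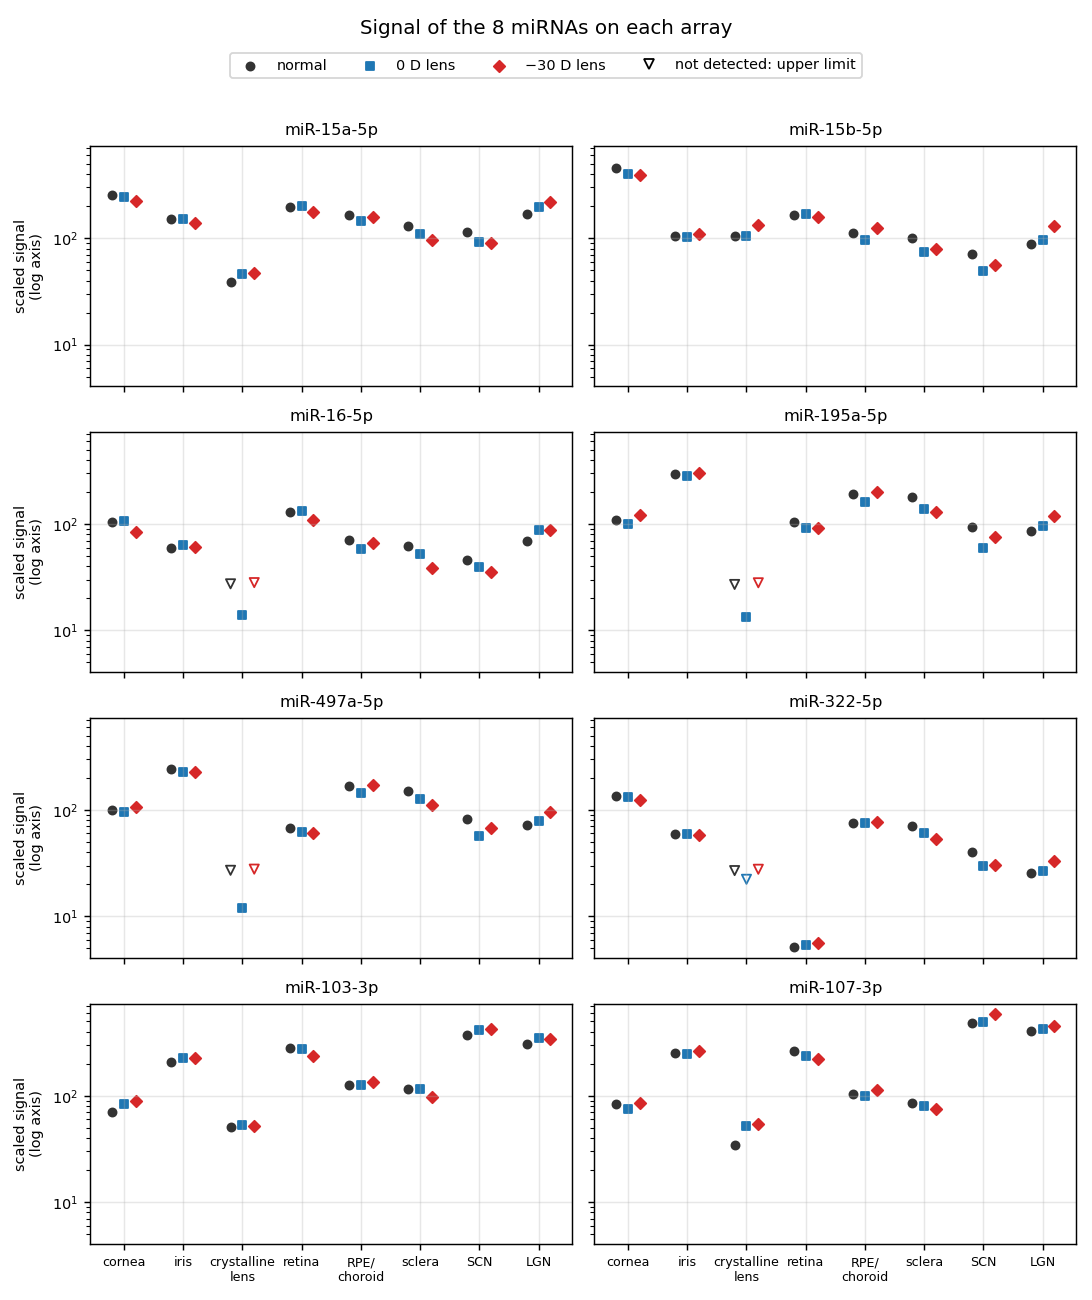
Scaled signal (log axis) of each of the 8 miRNAs on each array, by tissue, with the 3 lens groups as separate symbols and open triangles at the upper limit where a miRNA was not detected. With this scaling miR-103 and miR-107 were highest in SCN and LGN, miR-195a and miR-497a in iris, and miR-15b and miR-322 in cornea; the order for miR-195a and miR-497a was kept by all 5 scalings and corrections, the others not by each.

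The intronic pair miR-103 and miR-107 was highest in the SCN and LGN samples. miR-103 measured 373, 413 and 424 in SCN, 305, 347 and 343 in LGN and 284, 275 and 236 in retina. In the cornea it measured 70.2 (from 1 probe), 84.5 and 88.5 and in the crystalline lens 50.5, 53.0 and 52.5, where 1 of its 2 probes was read. With the scaling used, the arrays of the 3 nervous tissues thus lay above all arrays of the other 5 tissues, the nearest being iris at 206, 225 and 225. RPE/choroid followed at 127, 127 and 134 and sclera at 115, 116 and 96.4. Without scaling the nervous tissues and iris overlapped, since miR-103 measured 291 on the normal SCN array and 453 on the 0 D iris array. miR-107 measured 479, 498 and 580.3 in SCN and 402, 419.8 and 453 in LGN, with the scaling used above all arrays of every other tissue. Without scaling this did not hold, since miR-107 measured 374 on the normal SCN array and 502 on the 0 D iris array. Retina (263, 234 and 223) and iris (255, 249 and 264) overlapped for miR-107 (log2 difference 0.09 ± 0.14 SE, limma adjusted p = 0.554, in a comparison that called 74.1% of all miRNAs). It was lower in RPE/choroid at 105, 98.9 and 114, in sclera at 85.8, 80.6 and 75.1 and in cornea at 83.9, 75.8 and 85.4, and lowest in the crystalline lens at 34.2, 51.7 and 54.0, the first of them from 1 probe. SCN and LGN did not pass the test against each other (miR-103: 0.28 ± 0.12, adjusted p = 0.0613; miR-107: 0.28 ± 0.14, adjusted p = 0.123), where 41.1% of all miRNAs were called, and which of them came first changed with the scaling. With no scaling, retina and SCN changed places for miR-103 (retina minus SCN 0.03, beside -0.61).

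Set together, the nervous tissues (retina, SCN and LGN) differed from the other 5 tissues in 7 of 8 members, where limma called 88.8% of all miRNAs, 44.7% as higher and 44.2% as lower. A share of 7 in 8 is close to that background. The SE and p-values of this contrast rest on the spread of arrays about the fit, not on that between tissues. They hold for these tissues only and do not test nervous against other tissues in general. Tissues on the same side of the contrast differed by more than its SE. For miR-107 retina minus SCN was -1.11 and iris minus crystalline lens 2.485, and iris overlapped with retina. In size the members split. miR-107 was higher in the nervous tissues by 1.97 ± 0.07 (log2, SE, adjusted p = 2.8e-14) and miR-103 by 1.64 ± 0.06 (1.7e-14). miR-322 was lower by 1.52 ± 0.08 on the log2 scale (3.6e-12). These 3 kept their direction and their call in each of the alternatives that tested them, but not their size: miR-107 ranged from 1.39 to 2.97, miR-103 from 1.12 to 2.64 and miR-322 from -2.17 to -0.26. For miR-322 the difference was -0.83 with no scaling and -0.52 with the 75th percentile over all miRNAs. For undetected miRNAs, as miR-322 in the crystalline lens, the fit took the lowest detected signal of the array. miR-16 was higher by 0.68 ± 0.09 (2.3e-06) and miR-15a by 0.33 ± 0.07 (0.00031), while without the crystalline lens tissue, an alternative added after the data were seen, miR-16 gave 0.15 (0.122) and miR-15a -0.04 (0.641). With normexp background correction they gave 0.05 (0.358) and 0.06 (0.305). miR-15b (-0.45 ± 0.08, 6.3e-05) and miR-497a (-0.29 ± 0.08, 0.0033) were lower, and miR-195a gave -0.13 ± 0.10 (0.202). Without the 0 D slide miR-497a gave -0.24 (0.0559). The direction of miR-15b, miR-497a and miR-195a was not fixed, since with no scaling they were higher in the nervous tissues by 0.24, 0.40 and 0.56 in that order.

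**Figure D2:**
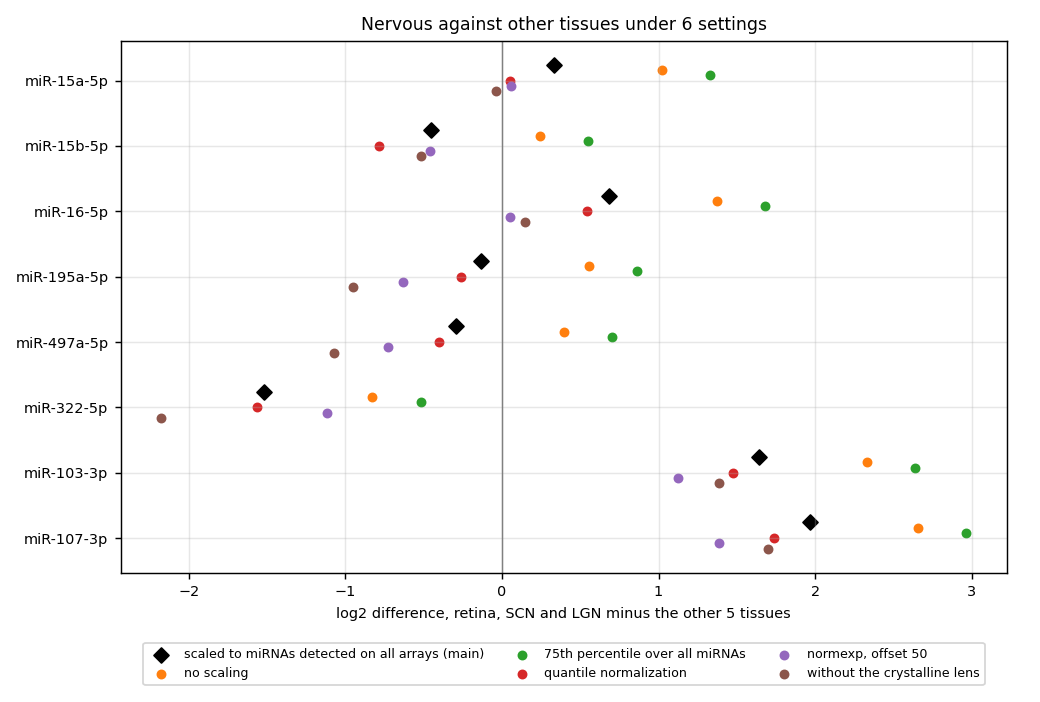
Log2 difference of the scaled signal, mean of retina, SCN and LGN minus mean of the other 5 tissues, for each miRNA (rows) under 6 settings (symbols). The points of miR-103 and miR-107 all lie right of 0 and those of miR-322 left of 0, while those of miR-15a, miR-15b, miR-195a and miR-497a lie on both sides.

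The clustered pair miR-195a and miR-497a, known together as a muscle and cell cycle cluster, had its highest signals in iris. miR-195a measured 296, 284 and 299 in iris, 192, 162 and 198 in RPE/choroid and 178, 140.0 and 129 in sclera. The 3 iris arrays lay above every other array. It measured 108, 101 and 120.3 in cornea, 85.2, 95.8 and 119 in LGN, 104, 91.8 and 91.6 in retina and 93.5, 58.9 and 74.8 in SCN, where neighbours in this order overlapped. miR-497a measured 242, 229.5 and 229 in iris, 167, 145 and 171 in RPE/choroid, 149.6, 126 and 112 in sclera and 100.3, 95.5 and 107.02 in cornea. It was lower in LGN at 71.4, 78.7 and 95.7, in SCN at 82.2, 56.4 and 68.0 and in retina at 67.1, 62.5 and 60.1. Iris exceeded RPE/choroid by 0.68 ± 0.19 for miR-195a (adjusted p = 0.006) and by 0.54 ± 0.16 for miR-497a (adjusted p = 0.00936), in a comparison that called 53.8% of all miRNAs. Under all 5 scalings and background corrections, iris was the highest tissue and RPE/choroid the second for both. The smooth muscle and fibroblast markers were all 4 detected in iris, with a summed signal of 425 to 437, but they were higher in sclera at 1009 to 1170, and their part in the signals was not tested.

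Of miR-15a, miR-15b and miR-16, the profiles of miR-15a and miR-16 were the most alike with the scaling used. miR-15b parted from both mainly in cornea and crystalline lens. miR-15a measured 255, 243 and 225 in cornea, 196, 201 and 177 in retina and 169.9, 194 and 219.9 in LGN. In RPE/choroid, iris and sclera its signals lay between 95.6 and 164, in SCN at 114, 91.6 and 89.4 and in the crystalline lens at 39.1, 46.4 and 47.4. Cornea exceeded LGN by 0.31 ± 0.14 (adjusted p = 0.044, in a comparison that called 85.8% of all miRNAs), but with no scaling the difference was -1.04 and with the 75th percentile over all miRNAs -1.62, and retina was then the highest tissue. LGN and retina did not differ beyond their spread (0.02 ± 0.14, adjusted p = 0.912, 70.6% of all miRNAs called). miR-16 was highest in retina (128, 131 and 108) and next in cornea (105, 106 and 84.4), followed by LGN at 69.6, 88.0 and 88.7, with 46.3, 39.5 and 35.0 in SCN. Its tissues from cornea down to SCN overlapped with their neighbours in that order. Retina against cornea did not pass the test (0.32 ± 0.18, adjusted p = 0.117).

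miR-15b stood out by its corneal signal of 457, 403 and 391. The next tissue was retina at 164, 168 and 157, which was lower by 1.35 ± 0.16 (adjusted p = 5.3e-07, in a comparison that called 84.3% of all miRNAs). Crystalline lens (105, 104 and 134), RPE/choroid (112, 95.3 and 125), iris (105, 102 and 109.5) and LGN (87.3, 96.6 and 132) overlapped, sclera measured 100.5, 74.5 and 79.9, and SCN was lowest at 71.4, 49.2 and 56.2. The cornea's lead rested on the scaling: with no scaling the difference to retina was -0.16, with the 75th percentile over all miRNAs -0.68, with quantile normalization 1.43 and with normexp background correction 1.16. The corneal arrays were among the dimmest, as their factors show. The surface epithelium markers (2 of 2 detected on all 3 cornea arrays) were 0 in 6 of the tissues and reached 8.06 in iris. They thus mark the cornea, where miR-15b and miR-322 were highest with the scaling used. Among the tissues where they were 0 they cannot follow either miRNA, and their part in the corneal signals was not tested.

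miR-322 is the mouse counterpart of human miR-424. It measured 136, 133 and 123 in cornea, 75.9, 76.0 and 76.6 in RPE/choroid, 70.6, 60.1 and 53.3 in sclera and 59.4, 59.4 and 57.5 in iris. SCN gave 40.03, 29.7 and 30.4 and LGN 25.4, 26.8 and 33.2, below all arrays of those 4 tissues. In retina it measured 5.15, 5.33 and 5.57. Cornea exceeded RPE/choroid by 0.78 ± 0.16 (adjusted p = 0.00031, 64.5% of all miRNAs called) and retina by 4.61 ± 0.16 (3.5e-14). The size of the difference to retina moved with the processing. It was 3.09 with no scaling, 2.58 with the 75th percentile over all miRNAs, 4.26 with quantile normalization and 2.39 with normexp. The retinal value came from 1 of the 2 probes, the other being under 3 errors on all 3 arrays, while all values of the other tissues came from both. The tissue order above retina also moved with the scaling, since cornea was highest with 3 of the 5 scalings and corrections, RPE/choroid with no scaling and iris with the 75th percentile over all miRNAs.

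In the crystalline lens several members were at the limit of detection. miR-322 was not detected on any of its 3 arrays, with upper limits of 26.9, 22.3 and 27.7. Averaged over the 3 arrays on the log2 scale, cornea was at least 5.11-fold and RPE/choroid at least 2.99-fold above these limits. These averages are not bounds for each array. miR-16, miR-195a and miR-497a were detected on the 0 D array alone at 13.9, 13.3 and 12.1, each by 1 probe. The upper limits on the normal and -30 D arrays lay between 27.1 and 28.2, above these signals, so that no difference can be read from them. miR-15b had a crystalline lens signal within the range of the other tissues with the scaling used, but the lowest of all tissues with no scaling and with the 75th percentile over all miRNAs (-1.82 and -1.75 against RPE/choroid, beside 0.05). Blood cell, smooth muscle, endothelial and surface epithelium markers were all undetected in the crystalline lens.

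Ratios of 2 members on the same array do not depend on the scaling. Their height depends on the probes, so that only differences between tissues are read from them. The log2 ratio of miR-15b to miR-15a was 0.84, 0.73 and 0.80 on the 3 cornea arrays and 1.42, 1.17 and 1.499 on those of the crystalline lens, where the first is from 1 probe of miR-15b. On the 18 arrays of the other 6 tissues it ran from -1.01 to -0.17, with tissue means from -0.90 (LGN) to -0.23 (retina). Relative to miR-15a, miR-15b was therefore higher in cornea and crystalline lens on every array, and no rescaling of whole arrays changes this. The ratio of miR-15b to miR-16 gave the same picture, with a mean of 2.09 ± 0.15 (SD, n = 3) in cornea against tissue means of 0.34 to 0.78 in iris, retina, RPE/choroid, sclera, SCN and LGN. The ratio of miR-15a to miR-16 was even in 6 tissues, with means of 1.14 to 1.296, and lower in retina at 0.64 ± 0.06. In the crystalline lens only the 0 D array detected miR-16, by 1 probe. That array gave 2.91 for miR-15b to miR-16 and 1.74 for miR-15a to miR-16, with errors within the array of 0.43 and 0.45.

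The pair miR-195a and miR-497a kept its ratio best. Over 22 arrays it stayed within 0.57 log2 units, from 0.06 to 0.63, with retina (0.60 ± 0.04, SD, n = 3) above all other tissues. Against miR-16, which shares 19 of 21 bases with it, miR-195a moved by 2.85 log2 units, from -0.52 in retina to 2.33 in iris. The ratio of miR-107 to miR-103 was higher in SCN (0.36 ± 0.09), LGN (0.36 ± 0.07) and iris (0.23 ± 0.08) than in retina (-0.14 ± 0.08), RPE/choroid (-0.29 ± 0.07) and sclera (-0.44 ± 0.08), with no overlap of arrays between these tissue groups. In cornea and crystalline lens its arrays scattered across 0. The ratio of miR-322 to miR-497a ran from 0.37 ± 0.15 in cornea to -3.56 ± 0.14 in retina.

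**Figure D3:**
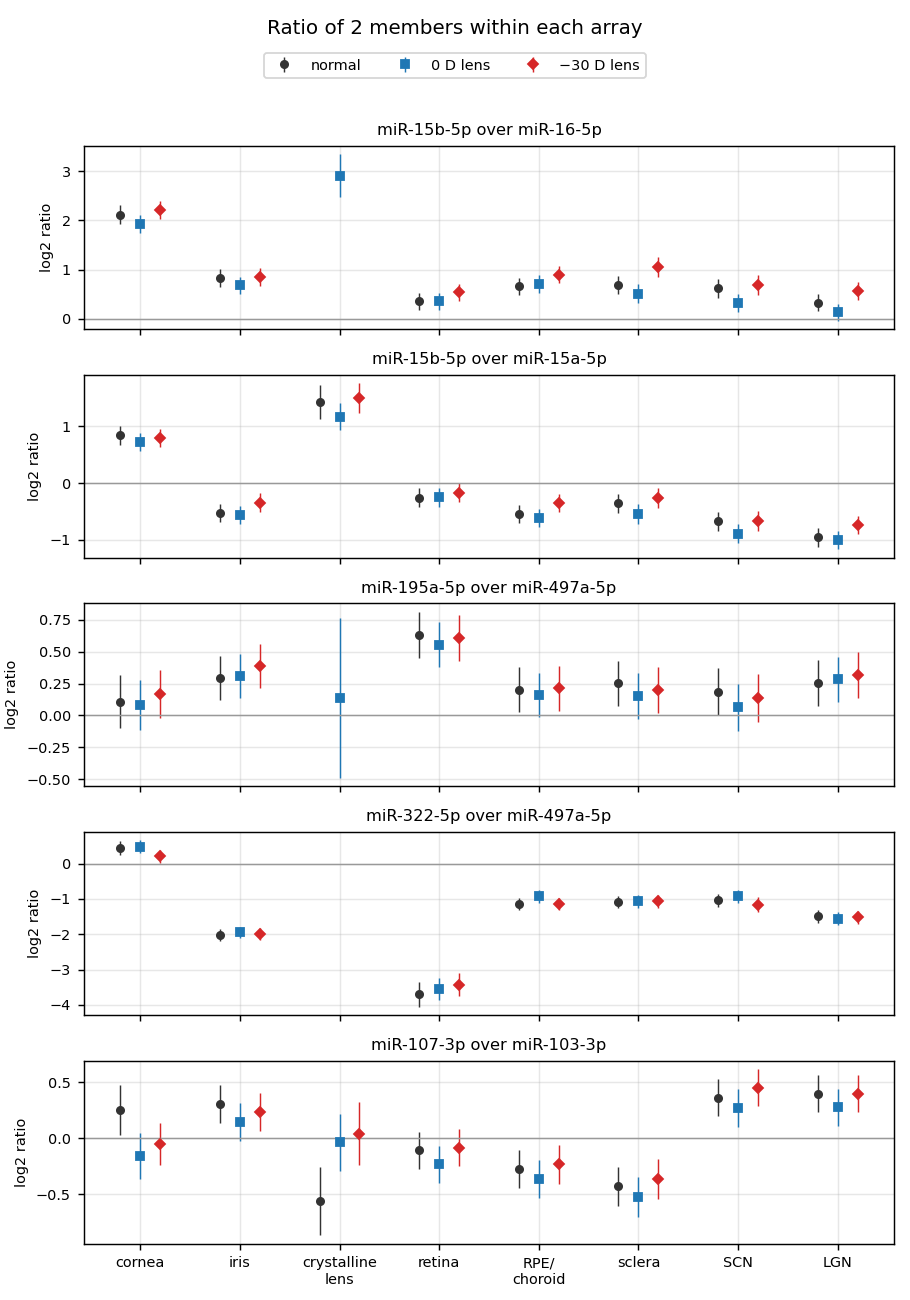
Log2 ratio of 2 members on each array (points, with the error propagated from the probe errors), by tissue and lens group. miR-15b over miR-15a is above 0 in cornea and crystalline lens and below 0 elsewhere, miR-195a over miR-497a is nearly level, and miR-107 over miR-103 is highest in SCN and LGN.

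The profiles were most alike within 3 pairs. Over the 24 arrays, which share slides and scaling, Pearson's r of the log2 scaled signals was 0.993 for miR-195a and miR-497a, 0.978 for miR-103 and miR-107 and 0.967 for miR-15a and miR-16. With the 21 arrays outside the crystalline lens the values were 0.970, 0.973 and 0.910. miR-15b, which has the same neighbour miR-16 as miR-15a, gave 0.40 with miR-16 and 0.52 with miR-15a, and 0.756 and 0.859 outside the crystalline lens. For miR-16 and miR-195a, the most alike in sequence of the miR-15/16 group, r was 0.767 over all arrays and -0.07 outside the crystalline lens. The lowest values were those of miR-15b with miR-103 (-0.43) and miR-107 (-0.38), but with no scaling they were 0.41 and 0.39. These are descriptions of 24 arrays, of which each tissue gave 3.

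**Figure D4:**
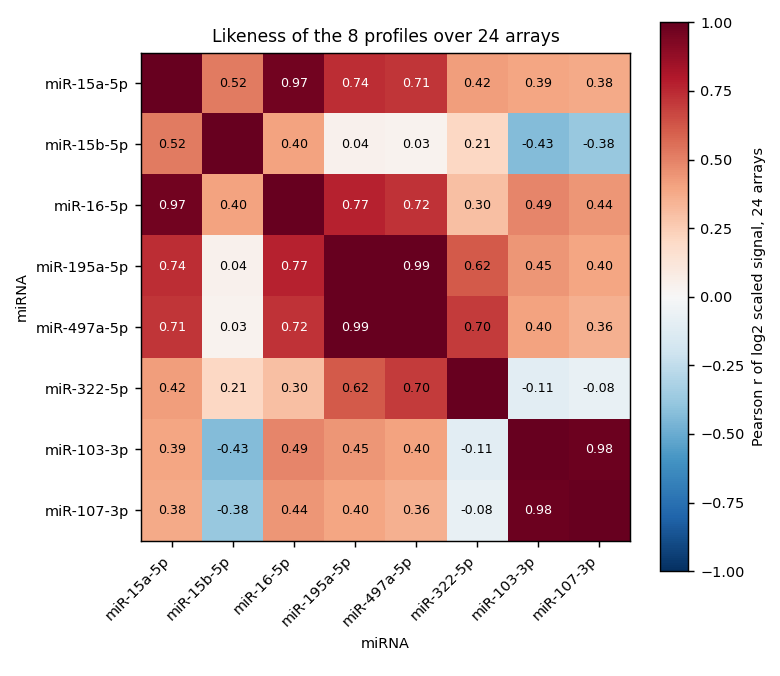
Pearson correlation of the log2 scaled signals of each pair of the 8 miRNAs over 24 arrays (8 tissues in 3 lens groups). The highest values are 0.99 (miR-195a, miR-497a), 0.98 (miR-103, miR-107) and 0.97 (miR-15a, miR-16), and the lowest is -0.43 (miR-15b, miR-103).

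Among the 79 miRNAs detected on all arrays, the profiles most like that of miR-103 after miR-107 were miR-361-5p (r = 0.971) and let-7d-5p (0.943), and those most like miR-107 were miR-361-5p (0.925) and miR-34a-5p (0.891). miR-15a was most like miR-21a-5p (0.854), miR-16 after miR-15a most like miR-26a-5p (0.873), and miR-15b most like miR-25-3p (0.812) and miR-210-3p (0.750). For miR-195a and miR-497a it was let-7i-5p (0.889 and 0.897), and for miR-322 miR-24-3p (0.885) and miR-23b-3p (0.884). Each r is over 24 arrays.

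Relatives of the members were mostly not seen. Of 21 listed opposite arms and cluster neighbours 20 were on the array, and 4 more miRNAs on it carry the same run (miR-195b, miR-6342, miR-6353 and miR-6419). Of these 24, 2 were detected anywhere. miR-503-5p, the neighbour of miR-322, was detected on the 3 cornea arrays alone at 11.5 to 14.9, the tissue where miR-322 was highest with the scaling used. miR-542-5p, of the same X-linked region, was detected in iris (1.40 to 1.83), RPE/choroid (3.31 to 6.93) and sclera (3.97 to 8.003). None was detected on enough arrays for a test. No opposite arm of any member exceeded 3 errors on any array.

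The lens comparison asked whether the members changed in eyes that wore a lens. Over the 8 tissues together, with the tissue as a block, no member passed the test between the -30 D lens and normal animals (0 of 8 by limma, with 0% of all miRNAs called). The log2 differences ran from -0.15 ± 0.11 (SE, miR-16) to 0.11 ± 0.09 (miR-107), with 0.05 ± 0.07 for miR-103, 0.03 ± 0.10 for miR-15b, -0.08 ± 0.09 for miR-15a, -0.01 ± 0.12 for miR-195a, -0.02 ± 0.10 for miR-497a and -0.04 ± 0.10 for miR-322. The adjusted p-values of limma were between 0.946 and 0.993. Their median was -0.02, as was that of all 197 miRNAs. The 95% intervals lay between -0.38 and 0.30, so that no interval held a 2-fold change common to the tissues. At an unadjusted p below 0.05 there were 0 of the 8 members and 13 of the 197 miRNAs.

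The 0 D lens gave the same kind of result. Against normal animals 0 of 8 members were called (0% of all miRNAs), with log2 differences from -0.16 to 0.09. Between the -30 D and the 0 D lens 0 of 8 were called (0.508% of all miRNAs), with differences from -0.20 (miR-16) to 0.18 (miR-15b). The unadjusted p was below 0.05 for 0 members in both, and for 26 and 31 of the 197 miRNAs. The effect of the -30 D lens was also compared between nervous and other tissues. The interaction called 0 of 8 members (0% of all miRNAs, 15 of 197 at an unadjusted p below 0.05), with differences of -0.06 to 0.11.

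**Figure D5:**
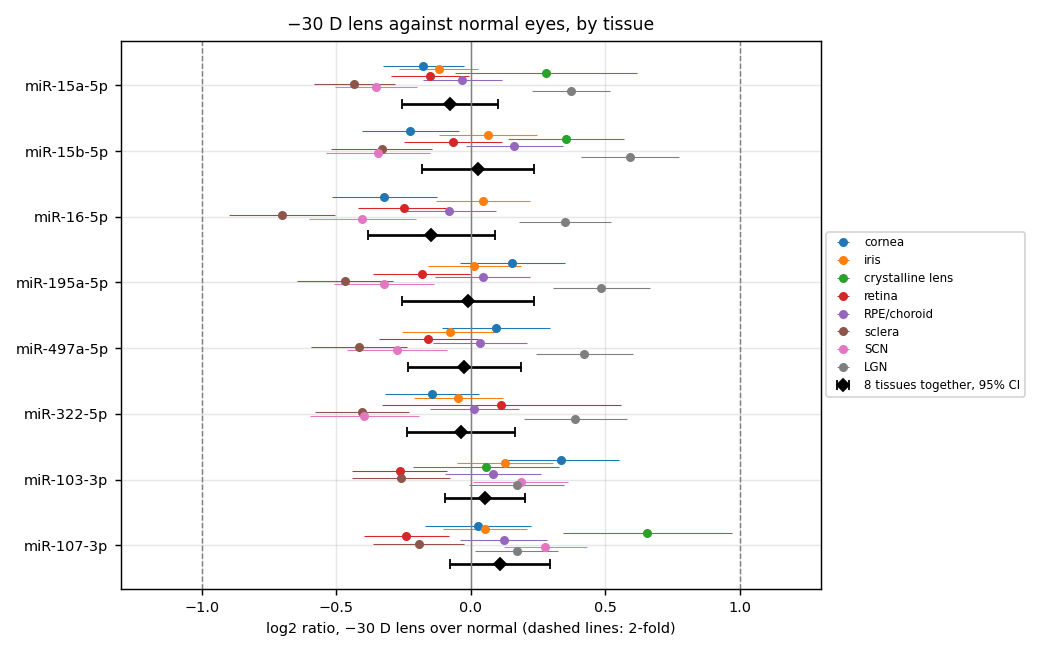
Log2 ratio of the -30 D lens over normal animals for each of the 8 miRNAs (rows), by tissue (coloured points, with the error within the arrays) and over the 8 tissues together (black diamonds, limma estimate with 95% interval). All points lie within 2-fold, and those of sclera lie left and those of LGN right of 0.

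Within a tissue each lens group had 1 array, so that there is no test and every ± value is the error within the arrays. Of the member and tissue combinations detected on both arrays, 60 could be compared between the -30 D lens and normal animals, and none reached 2-fold in either direction, where 5.39% of such combinations over all miRNAs did. This held with no scaling and with normexp too, while with quantile normalization 1 member in sclera passed 2-fold and with the 75th percentile over all miRNAs all 8 members in sclera did, beside 60.1% of all miRNAs there. The log2 ratios ran from -0.70 ± 0.20 (miR-16, sclera) to 0.66 ± 0.31 (miR-107, crystalline lens), and 14 of 60 exceeded 2 errors. Between the 0 D lens and normal animals 6 of 60 did so, and between the -30 D and the 0 D lens 3 of 60. No share over all miRNAs is given for these counts, so that no result about the members is read from them. Between the 0 D lens and normal animals they ran from -0.67 ± 0.18 (miR-195a, SCN) to 0.60 (miR-107, crystalline lens), with 0 of 60 at 2-fold (background 4.91%). Between the -30 D and the 0 D lens they ran from -0.45 to 0.45, with 0 of 60 at 2-fold (background 4.43%). These comparisons share arrays with each other.

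Between the -30 D lens and normal animals all 8 members lay on the same side of 0 in sclera and in LGN, which was noticed after the values were seen. Here and below each side was 1 array, and members with alike profiles are not separate observations. The share of all miRNAs on each side of 0 is not given, so that no result about the members is read from these counts. The median of all miRNAs stands beside instead. In sclera all 8 members were lower with the -30 D lens than in normal animals, with a median of -0.41 beside -0.18 for all miRNAs detected on both arrays. miR-16 measured 62.3 and 38.3 there (-0.70), miR-195a 178 and 129 (-0.47), miR-15a 129 and 95.6 (-0.43) and miR-107 85.8 and 75.1 (-0.19 ± 0.17). The difference between the members' median and that of all miRNAs, -0.23, was the same with any rescaling of whole arrays and was -0.26 with quantile normalization. The members' median itself moved with the scaling, to -1.34 beside -1.11 with the 75th percentile over all miRNAs. Against the same normal array 7 of 8 members were also lower on the 0 D array, with a median of -0.25 beside 0.13. Between the -30 D and the 0 D lens 7 of 8 were lower in sclera, with a median of -0.17 beside -0.26. In that comparison the members thus fell less than the median of all miRNAs. On the normal and the -30 D sclera array the photoreceptor and sensory list measured 1094 and 524, the nervous tissue list 706 and 429 and the endothelial list 393 and 243, while the striated muscle list measured 152.5 and 254, and their part in the shift was not tested.

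In LGN all 8 members were higher with the -30 D lens, with a median of 0.38 beside 0.14 for all miRNAs, while with the 75th percentile over all miRNAs the median was 0.10 and 2 members were lower, and with quantile normalization 1 was lower. miR-15b measured 87.3 and 132 (0.59 ± 0.18), miR-195a 85.2 and 119 (0.49 ± 0.18) and miR-497a 71.4 and 95.7 (0.42 ± 0.18), while miR-103 and miR-107 each gave 0.17. The 0 D array was also higher than the same normal array for all 8, with a median of 0.16 beside 0.03. Between the -30 D and the 0 D lens the LGN median was 0.23 beside 0.12, with 1 member lower. In SCN the family split, since miR-103 (0.19 ± 0.18) and miR-107 (0.28 ± 0.15) were higher and the 6 members of the miR-15/16 group were lower by log2 ratios of -0.27 to -0.40. With no scaling 2 of the 8 ratios were below 0, but the members' median stayed -0.27 from that of all miRNAs. With the scaling used, the 0 D array of SCN gave the same signs against the same normal array. The ratios were 0.15 and 0.06 for miR-103 and miR-107 and -0.23 to -0.67 for the others. These signs rested on the scaling: with no scaling 0 of the 8 were below 0, and with the 75th percentile over all miRNAs 1 was. Between the -30 D and the 0 D lens the SCN median was 0.12 beside 0.15, with 2 members lower. The nervous tissue list measured 3765, 3494 and 3456 in SCN and 3780, 4489 and 4446 in LGN, in the order normal, 0 D lens, -30 D lens, and its part was not tested.

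In the crystalline lens the 4 members detected on both arrays were higher with the -30 D lens, with a median of 0.32 beside 0.00 for all miRNAs, but with no scaling and with the 75th percentile over all miRNAs 1 of the 4 was lower. Their ratios were 0.66 ± 0.31 (miR-107), 0.35 ± 0.21 (miR-15b), 0.28 ± 0.34 (miR-15a) and 0.06 ± 0.27 (miR-103). On the same arrays the nervous tissue list measured 119.7, 325 and 390.3 and the sensory list 131, 318 and 427 (normal, 0 D lens, -30 D lens), and their part was not tested. Between the -30 D and the 0 D lens all 8 members were higher in RPE/choroid, from 0.01 (miR-322) to 0.39 ± 0.18 (miR-15b). Their median was 0.20 beside 0.01, while with normexp 1 of the 8 was lower and with the printed totals 2 were. Against the normal RPE/choroid array 6 of 8 members were lower on the 0 D array, with a median of -0.18 beside 0.04. On the -30 D array 2 of 8 were lower than on the normal array, with a median of 0.04 beside 0.09.

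By the ratio and flag criteria of the study's methods (above 2 or below 0.5 with detection on both arrays, above 5 or below 0.2 with detection on 1 array), 6 changes were called among the members. None was between the -30 D lens and normal animals, where the criteria called 17.2% of the combinations of all miRNAs detected on at least 1 array. All 6 were miR-16, miR-195a and miR-497a in the crystalline lens, a tissue in which the criteria called 12.2% between the -30 D lens and normal animals. Of these 6, 3 were between the 0 D lens and normal animals (15.6%, and 17.5% within the crystalline lens) and 3 between the -30 D and the 0 D lens (15.4%, and 15.9%). The methods give no value for an undetected miRNA. It was set to 0.1 here, and all 6 calls rest on that value. They also rest on the signals of 12.1 to 13.9 on the 0 D array described above, and no fold can be given for them, since the upper limits on the other arrays were higher than these signals.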

How the data were processed

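RNA of 24 mouse samples was measured on 1-color miRNA arrays (100 ng each). The authors scanned the arrays and extracted intensity values with Agilent Feature Extraction 10.7.1.1, and the deposited scanner files give a background-subtracted total signal and an error per probe. A deposited table named normalized was not used here. The signal of a miRNA was the sum over its probes above 3 errors, scaled to 1 value of the 75th percentile of the miRNAs that all arrays detected. The total printed per miRNA in the files was not the main value: for 7 values of the members it equalled this sum plus the printed total of a miRNA listed earlier. For tests, an undetected miRNA took the lowest signal detected on that array, log2 signals were fitted in limma 3.58.1 (R 4.3.3) with tissue and lens group as terms, and p-values were adjusted over 197 miRNAs detected on at least 12 arrays. The number of arrays limits the precision, and nothing says that arrays of a tissue came from separate animals beyond the lens groups. The 8 members were all named. Their signals were not used in choosing them, but they, the companion and the marker lists were chosen with earlier results of these data known. The fit was tested on simulated data. Alternatives were other scalings, normexp (offset 50), the value of undetected miRNAs, filters, the printed total, and leaving out slides or tissues. Python 3.11.15, numpy 2.4.6, pandas 2.3.3 and matplotlib 3.10.9 were used.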

Additional observations from a re-analysis of the deposited data

How the results depend on the processing

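miR-103, miR-107 and miR-322 kept the direction and the call of their difference between nervous and other tissues under each alternative that tested them, with ranges of 1.12 to 2.64, 1.39 to 2.97 and -2.17 to -0.26. The direction or the call of the other 5 depended on the processing, and the cause was not tested. With no scaling miR-15b, miR-195a and miR-497a gave 0.24, 0.56 and 0.40, and with the 75th percentile over all miRNAs 0.55, 0.87 and 0.71. With undetected miRNAs at 0.1, miR-195a gave 0.73 and miR-497a 0.57. Without the crystalline lens tissue miR-15a gave -0.0351. Leaving out each slide, miR-497a lost its call without the 0 D slide (range -0.33 to -0.24). With the filter to miRNAs detected on all 24 arrays only 4 members were tested, and 4 differed between tissues and 4 between nervous and other tissues. The printed total changed 7 values of the members and called 7 of 8 between tissues, but these values include the signal of another miRNA.

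No lens contrast called a member under any alternative. The differences between the -30 D lens and normal animals were small enough to change sign: with the 75th percentile over all miRNAs miR-15b gave -0.0993, miR-103 -0.0707 and miR-107 -0.0154, with quantile normalization miR-15b gave -0.042 and miR-103 -0.004, with the printed total miR-15b gave -0.0688, with the 6 ocular tissues miR-15b gave -0.0072, and with no scaling miR-195a gave 0.0037. Leaving out each tissue in turn gave -0.0556 to 0.0783 for miR-15b, -0.082 to 0.054 for miR-195a, -0.0873 to 0.0321 for miR-497a and -0.097 to 0.0163 for miR-322. Over all miRNAs the calls ranged from 0 to 21 between the 0 D lens and normal animals and from 0 to 23 between the -30 D and the 0 D lens, both highest with no scaling. The 6 changes by ratio and flag became 30 with the 75th percentile over all miRNAs (8 in sclera between the -30 D lens and normal animals, 7 in cornea and 5 in RPE/choroid between the -30 D and the 0 D lens among them) and 0 with normexp or, added after the data were seen, with undetected miRNAs at the lowest detected signal. No paired analysis was possible because the labels give no replicate numbers, other than the pairing of lens groups within tissues that the tissue block of the lens contrasts makes. Without that block 0 members were called between the -30 D lens and normal animals.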
